A study of Rattus norvegicus with 9 samples.

Results

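Expression of 10 genes of fatty acid handling was measured in pancreatic islets of male Wistar rats. The genes are Ppara and Ppargc1a, which regulate other genes, the enzyme genes Pdk4, Acot1 and Acot2, the uncoupling protein genes Ucp2 and Ucp3, and the lipid uptake and storage genes Cd36, Angptl4 and Plin2. Members were listed by name, and a probe set was taken where the platform annotation gives it exactly 1 gene symbol equal to a listed one. All 10 of the 14217 genes named on the array in this way were found, with 17 of the 20826 probe sets. The main probe set of a gene is the one with the highest mean over the arrays. The rats were 7 weeks old when caged. The 4 standard arrays came from rats fed ordinary chow for 30 days, with 8% of calories as fat. The 5 cafeteria arrays came from rats fed a palatable diet for the same time, with 66% of calories as fat. Each array was hybridised with RNA of an independent sample of islets, the clusters of hormone cells in the pancreas, isolated with collagenase and a density gradient and picked by hand. The design text lists 5 standard samples, while the deposited values hold 4 standard arrays, all of which were used. Diets were assigned by title. In the labels of 9 of 9 samples a separate diet entry gives the other diet, and every sign below would turn under that entry.

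The peroxisome proliferator-activated receptors (PPARs) are nuclear receptors that bind fatty acids and, paired with a retinoid X receptor (RXR), switch on genes of fatty acid uptake, oxidation and storage. The coactivator PGC-1alpha, encoded by Ppargc1a, works with them and drives mitochondrial genes. In beta cells, fatty acids can both enhance and impair insulin secretion, and the uncoupling protein UCP2 has been studied there as a brake on the ATP signal that triggers secretion. Plin2 coats lipid droplets, in which excess fatty acids are stored as triglyceride.

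None of the 10 genes passed the test between diets. limma's test covered 18625 probe sets, those with a mean log2 signal at or above the 40th percentile (about 91.1 in signal), with Benjamini-Hochberg adjustment over all of them. The main probe sets of 7 genes reached that level, and those of Ppara, Ucp3 and Acot1 did not. Of these 7, 0 passed an adjusted p of 0.05, beside 0% of all probe sets, with 0.228 as the lowest adjusted p of all. Without adjustment, 2 of the 7 had a limma p under 0.05, beside 5.80% of all probe sets (1080). These were Ppargc1a, higher in the cafeteria group as 3.01% of all probe sets were at that p, and Acot2, lower as 2.79% were. The genes were chosen with earlier results of these arrays known, so that count is a description. In 0 of the 7 were the groups free of overlap, beside 1.76% of all probe sets (0.999% higher and 0.762% lower in the cafeteria group). The median log2 difference of the 7, cafeteria minus standard, was -0.07, beside -0.009 over all probe sets tested. In 6 of 7 the log2 difference was negative, beside 51.9% of all probe sets.

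**Figure D1:**
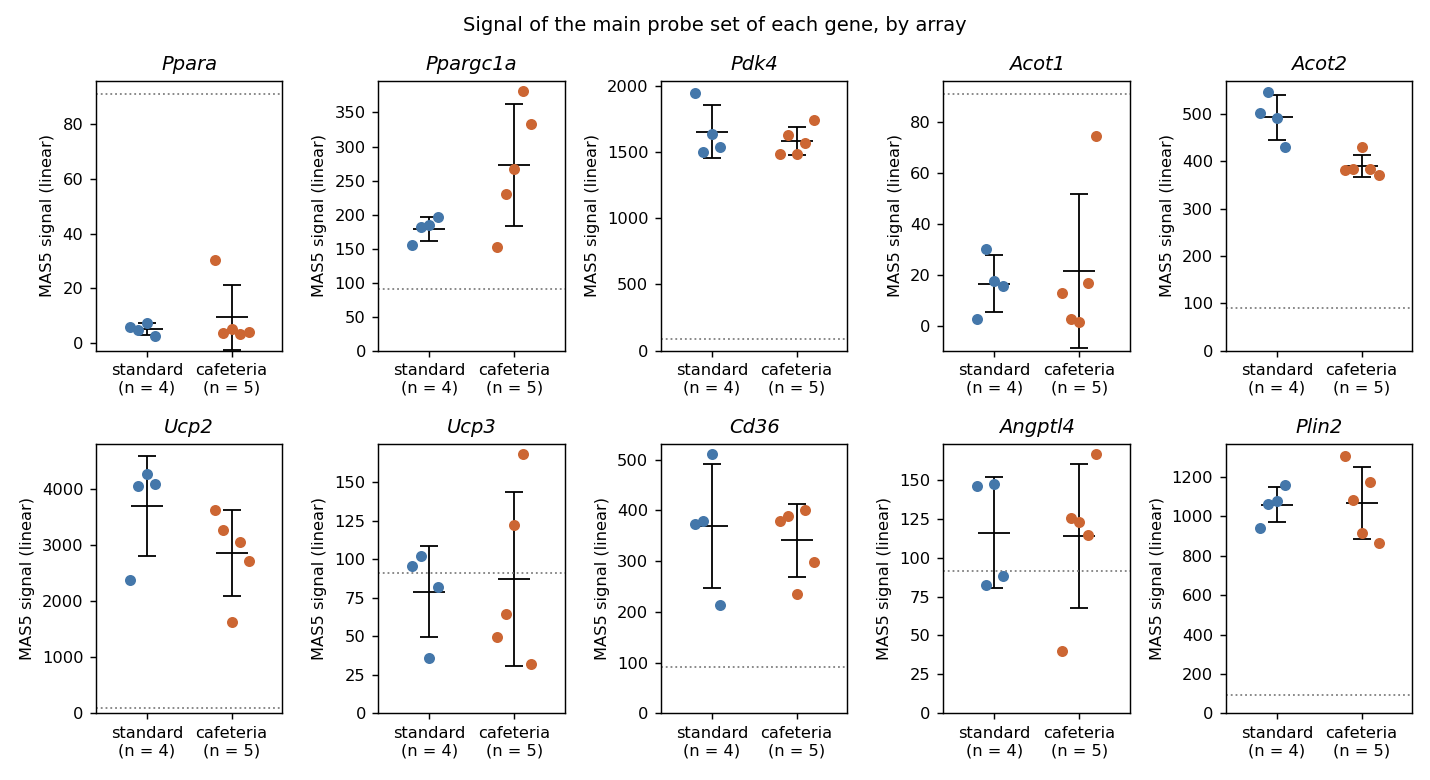
MAS5 signal (linear axis) of the main probe set of each gene on 4 standard and 5 cafeteria arrays; points are arrays, bars are the mean and SD, and the dotted line is the filter at a signal of 91.1. The 5 cafeteria points of Acot2 lie between 371 and 431 and those of the standard group between 429.9 and 547, while the points of the groups overlap in every panel.

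The islet label held for these arrays. The 11 endocrine genes named on the array out of 14, among them Iapp and Ppy, which encode islet peptides, were all above the filter, with a summed signal of 232204 to 329353 on standard and 242033 to 337268 on cafeteria arrays. The defining endocrine genes Ins1 and Gcg had log2 differences of 0.09 and 0.06. Of 12 acinar genes, markers of exocrine pancreas, 11 had a higher mean log2 signal in the cafeteria group, with a median log2 difference of 0.46 over the 12. Of them, 2 had an unadjusted limma p under 0.05, beside 5.80% of all probe sets, and 0 were called. The sum of the 12 had a median of 5354 on standard and 9415 on cafeteria arrays and was 3830 to 9799 on standard and 2944 to 10694 on cafeteria arrays. Amy2a3 and Prss1 had the highest mean signals among them, and the defining genes Prss1 and Cpa1 had log2 differences of 0.36 and 0.72. The ratio of the 3' to the 5' beta-actin probe set, a measure of how complete the labelled RNA is, was 3.00 to 4.84 on standard and 2.79 to 5.63 on cafeteria arrays. It was highest on cafeteria replicate 3 (5.63), standard replicate 1 (4.84) and cafeteria replicate 5 (4.59). Array medians lay between 147 and 167. Precision is limited by having 9 arrays.

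Among the regulators, Ppargc1a had the higher signals in the cafeteria group on most arrays. Its main probe set, 1395518_at, gave 155, 182, 185 and 196 on standard replicates 1 to 4. On cafeteria replicates 1 to 5 it gave 152, 231, 267, 382 and 333. In the cafeteria group 4 arrays lay above all standard ones, and replicate 1 lay below all of them. The means were 179 ± 17.5 (SD, n = 4) and 273 ± 89.2 (SD, n = 5), so the spread was wider on cafeteria arrays. This is a log2 difference of 0.51 ± 0.23 (SE), a 1.42-fold higher level, with a 95% interval from limma, not adjusted for the number of probe sets, of 0.0099 to 1.01. limma's adjusted p was 0.839, and the exact two-sided permutation p of this 1 gene was 0.0952. Leaving out 1 array at a time gave 0.38 to 0.69.

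The other Ppargc1a probe sets pointed the same way. Probe set 1393743_at gave 67.6 to 106 on standard arrays and 68.1, 96.9, 176, 183 and 200.1 on cafeteria replicates 1 to 5, a log2 difference of 0.62 ± 0.30 (SE; limma's adjusted p = 0.839). Its signals followed those of the main probe set over the 9 arrays (Pearson r = 0.93, Spearman rho = 0.88, exact permutation p = 0.000546 and 0.0031, 0.0049 and 0.028 after adjustment over 9 pairs of probe sets). Without the 2 arrays farthest from the median, r was 0.88. The third, 1370089_at, lay below the filter, with signals of 6.72 to 74.1 and a log2 difference of 0.49 (exact permutation p = 0.389). Its signals had r = 0.57 and rho = 0.53 with those of the main probe set (exact permutation p = 0.11 and 0.15). Without the 2 arrays farthest from the median, r was 0.03, so it adds little to the other readings.

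**Figure D2:**
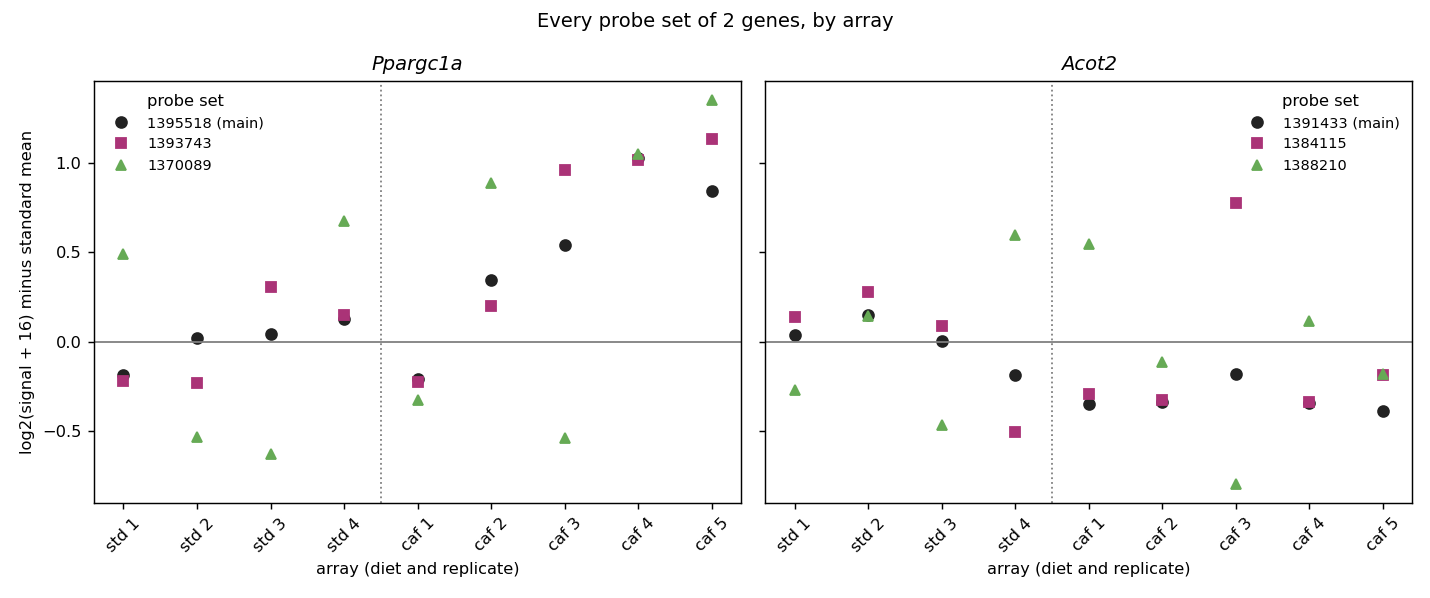
Log2(signal + 16) of every probe set of Ppargc1a and Acot2 on each array, minus its mean over the standard arrays; std and caf are the diets, with the replicate number. For Ppargc1a the 2 brighter probe sets move together (r = 0.93), and for Acot2 the probe sets 1384115_at and 1388210_at go opposite ways on cafeteria replicate 3.

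Ppara, which encodes the receptor itself, was listed at signals of 2.47 to 7.32 on standard arrays. On cafeteria arrays it gave 30.3 on replicate 1 and 3.25 to 4.99 on the others. These signals lie at the 1.1th percentile of all probe sets, where the array gives no usable level, and the log2 difference of 0.17 (exact permutation p = 0.881) was -0.07 without that 1 array. The array has 1 probe set named Ppara here, so no second reading was at hand.

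A promoter window from RefSeq (build GRCr8), 250 bases before to 50 after a start site, was at hand for all 10 genes, in 11 windows. The windows of the 4 genes on which the values below and above turn are printed 5' to 3' on the gene's strand: Ppargc1a and Acot2, the 2 with the smallest p between diets, and Ucp2 and Plin2, whose main probe sets followed the beta-actin ratio. They lie at chr14:63634058-63634357 (plus strand) for Ppargc1a, chr6:109342590-109342889 (plus) for Acot2, chr1:164251123-164251422 (plus) for Ucp2 and chr5:106228969-106229268 (minus) for Plin2. Capitals mark the searched motifs TGACGTCA, the cyclic AMP response element, TGACG, its half-site, which the first contains, CACGTG, the E-box, AGGTCA, the half-site of nuclear receptors, and TATAAA, the TATA box, each on both strands.
Ppargc1a: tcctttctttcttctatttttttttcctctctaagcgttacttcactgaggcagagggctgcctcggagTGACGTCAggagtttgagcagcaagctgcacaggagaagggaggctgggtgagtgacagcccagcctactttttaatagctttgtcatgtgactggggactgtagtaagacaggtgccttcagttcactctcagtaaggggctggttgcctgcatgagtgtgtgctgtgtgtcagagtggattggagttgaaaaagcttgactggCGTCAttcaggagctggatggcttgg
Acot2: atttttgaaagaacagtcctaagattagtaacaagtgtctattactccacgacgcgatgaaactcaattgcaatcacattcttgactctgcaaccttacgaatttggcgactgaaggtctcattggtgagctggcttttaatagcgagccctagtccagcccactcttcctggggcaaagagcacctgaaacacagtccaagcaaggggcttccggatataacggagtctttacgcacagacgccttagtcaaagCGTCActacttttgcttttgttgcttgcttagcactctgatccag
Ucp2: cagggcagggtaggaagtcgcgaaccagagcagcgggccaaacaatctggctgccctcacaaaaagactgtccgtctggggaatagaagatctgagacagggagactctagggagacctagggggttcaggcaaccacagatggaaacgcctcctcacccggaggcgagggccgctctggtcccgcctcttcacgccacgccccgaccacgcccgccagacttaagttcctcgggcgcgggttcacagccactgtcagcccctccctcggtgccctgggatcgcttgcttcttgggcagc
Plin2: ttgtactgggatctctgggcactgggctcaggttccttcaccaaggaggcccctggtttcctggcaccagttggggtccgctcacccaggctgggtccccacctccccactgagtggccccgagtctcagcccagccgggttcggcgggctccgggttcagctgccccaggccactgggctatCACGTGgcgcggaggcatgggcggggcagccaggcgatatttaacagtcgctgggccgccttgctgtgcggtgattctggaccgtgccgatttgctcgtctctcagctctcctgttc
The Ppargc1a window holds 1 copy of TGACGTCA, beginning 181 bases before the start site, and a half-site on the other strand 24 bases after it. Of 33469 windows of this length, 1.83% hold TGACGTCA and 21.2% hold TGACG. Acot2 has 1 copy of TGACG, on the other strand 5 bases after the start site, and the printed window of Plin2, 1 of 2, has a CACGTG 67 bases before it, as 6.42% of windows do. The Ucp2 window, with 63.3% G and C, holds none of these motifs. The PPAR response element DR1, a pair of AGGTCA copies in the same direction 1 base apart, was in 0.0538% of all windows and in none of the 11. Only this exact sequence was searched. With 18 of 33469 windows holding it, its absence from 11 windows says nothing about these genes. Inexact copies and sites outside the windows were not searched. Its half-site AGGTCA was in 16.2% of all windows and, among the 10 genes, in that of Ucp3, at 155 and 50 bases before the start site. A match is a match of letters, and no binding was measured.

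Among the enzyme genes, Acot2 had the lower signals in the cafeteria group. It encodes a mitochondrial thioesterase that splits fatty acyl-CoA into free fatty acid and coenzyme A. Its main probe set, 1391433_at, gave 503, 547, 491 and 429.9 on standard replicates 1 to 4. On cafeteria replicates 1 to 5 it gave 382, 385, 431, 383 and 371. In the cafeteria group 4 of 5 arrays lay below all standard ones, and replicate 3 lay just above the lowest of them, standard replicate 4. The means were 493 ± 48.3 (SD, n = 4) and 390.4 ± 23.3 (SD, n = 5). On the log2 scale the difference was -0.32 ± 0.13 (SE), a ratio of 0.80, with a limma interval of -0.59 to -0.049. limma's adjusted p was 0.839. The exact two-sided permutation p of this gene alone was 0.0159, not adjusted over the 10 genes, where the smallest that all splits into 4 and 5 arrays allow is 0.0079. Leaving out 1 array at a time gave -0.38 to -0.27.

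The other probe sets of Acot2 gave smaller log2 differences of the same sign. Probe set 1384115_at gave 252 to 446 on standard arrays and 285 to 318 on cafeteria arrays other than replicate 3, where it gave 636. A difference without that array was not computed for this probe set. Over the 9 arrays its signals had r = 0.53 and rho = 0.58 with those of the main probe set (exact permutation p = 0.139 and 0.108). Without the 2 arrays farthest from the median, r was 0.42. Its log2 difference was -0.08 ± 0.24 (SE), with a limma interval of -0.60 to 0.45 that also covers the value of the main probe set. The dim 1388210_at had -0.09, and its signals ran opposite to those of 1384115_at over the 9 arrays (r = -0.76, rho = -0.65, exact permutation p = 0.0169 and 0.0666, 0.076 and 0.266 after adjustment over 9 pairs; r = -0.80 without the 2 arrays farthest from the median). Its close relative Acot1, which encodes the cytosolic thioesterase, is a near-copy, so probes may not tell them apart. The Acot1 probe set gave 2.90 to 30.4 on standard arrays and 1.64 to 74.4 on cafeteria arrays, all below the filter, and its log2 difference was -0.006 (exact permutation p = 0.984). A probe set annotated with both symbols was left out, as was one annotated with Cd36 and Cd36l1.

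Pdk4 encodes a kinase that shuts pyruvate dehydrogenase, sparing glucose when fat is burned, and is a standard PPAR target. Its main probe set, 1378074_at, gave 1944, 1500.4, 1637 and 1538 on standard replicates 1 to 4. On cafeteria replicates 1 to 5 it gave 1489, 1630.2, 1486, 1568 and 1745. The groups overlap, and standard replicate 1 is the highest array of the 9. The log2 difference was -0.06 ± 0.11 (SE) with a limma interval of -0.29 to 0.18 and an adjusted p of 0.952. It is among the steadiest readings here, with a residual SD of 0.13 on the log2 scale beside a median of 0.26 over all probe sets. Its sign turned without standard replicate 1 (0.02).

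The dimmer Pdk4 probe set, 1369150_at, gave 181, 103, 159 and 179 on standard replicates 1 to 4. It gave 311, 225, 124, 196 and 139 on cafeteria replicates 1 to 5, of which 3 lay above all standard arrays. Its log2 difference was 0.29 ± 0.26 (SE; limma's adjusted p = 0.879), opposite in sign to the main probe set. The signals of both were unrelated over the 9 arrays (r = 0.02, rho = 0.12, exact permutation p = 0.965 and 0.776), and the limma interval of the dimmer one, -0.28 to 0.85, covers the value of the main one.

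Ucp2 encodes an inner mitochondrial membrane carrier that lowers the yield of ATP. Its probe set, 1368669_at, gave 2374, 4050.2, 4257 and 4079 on standard replicates 1 to 4. On cafeteria replicates 1 to 5 it gave 3623, 3257, 1623, 3049.8 and 2716. Of the standard arrays 3 lay above all cafeteria ones, and standard replicate 1 lay below 4 of them. The means were 3690.1 ± 882 (SD, n = 4) and 2854 ± 763 (SD, n = 5). The log2 difference was -0.38 ± 0.23 (SE), a ratio of 0.77, with a limma interval of -0.87 to 0.10, an unadjusted p of 0.114, an adjusted p of 0.859 and an exact permutation p of 0.238. It was -0.19 without cafeteria replicate 3 (limma's unadjusted p = 0.291, adjusted p = 0.996) and -0.58 without standard replicate 1 (unadjusted p = 0.0153, adjusted p = 0.542). Probe sets at an unadjusted limma p under 0.05 numbered 784 and 1674 in these fits, beside 1080 with all arrays.

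The arrays that were low in Ucp2 for their group were those with a high beta-actin ratio. Over the 9 arrays the log2 signal of Ucp2 and the log2 ratio had a Pearson r of -0.84 and a Spearman rho of -0.70 (exact permutation p = 0.0036 and 0.0433, 0.0127 and 0.151 after adjustment over 7 genes). Without the 2 arrays farthest from the median of the ratio, r was -0.77, and with each group's mean removed it was -0.89. The main probe set of Plin2, 1390383_at, followed the ratio too, with r = -0.92 and rho = -0.92 (exact permutation p = 0.000703 and 0.0013, 0.0049 and 0.0092 after adjustment). Its r was -0.92 without those 2 arrays and -0.93 with group means removed. Among all probe sets tested, 3.37% had an r at least as large in size as that of Ucp2, and 0.392% as that of Plin2. The other tested Plin2 probe set, 1382680_at, had no such relation (r = 0.01, rho = 0.02, exact permutation p = 0.978 and 0.982; r = 0.19 without the 2 arrays farthest from the median of the ratio), so the relation holds for 1 of 2 readings of that gene. Acot2 probe set 1384115_at had r = 0.75 and rho = 0.77 (exact permutation p = 0.019 and 0.0214, 0.0761 and 0.0856 after adjustment over the 4 other tested probe sets; r = 0.50 without those 2 arrays). For the other 5 genes r lay between -0.28 and 0.62, with adjusted exact permutation p-values of 0.154 to 0.607. The same ratio for Gapdh fell over standard replicates 1 to 4 (1.636, 1.596, 1.478 and 1.301). The beta-actin ratio fell in the same order there (4.84, 3.82, 3.36 and 3.00). Over all 9 arrays the order by the Gapdh ratio was partly different. The Gapdh ratio was highest on standard replicate 1 (1.636) and cafeteria replicate 5 (1.624). On cafeteria replicate 3, the lowest in Ucp2 (1623), it was 1.534, below the 1.596 of standard replicate 2, where Ucp2 gave 4050.2. The relation of Ucp2 and Plin2 to the Gapdh ratio was not tested.

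**Figure D3:**
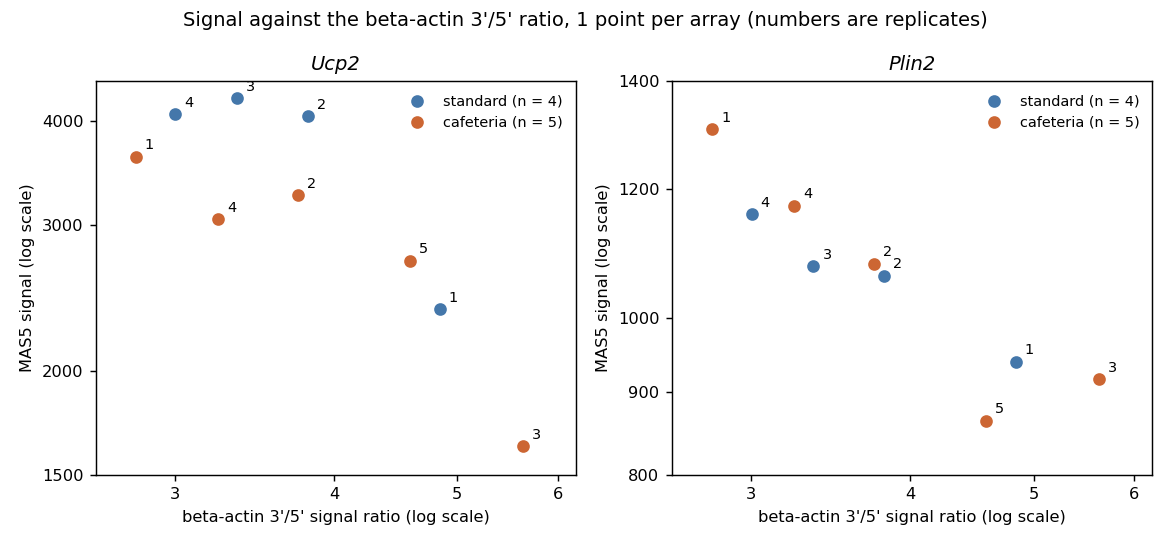
MAS5 signal of the main probe sets of Ucp2 and Plin2 against the ratio of the 3' to the 5' beta-actin probe set, both axes on a log scale, 1 point per array labelled with its replicate number. Signals are lower on arrays with a higher ratio (r = -0.84 and -0.92), and the 4 cafeteria points of Ucp2 with a ratio under 5 lie at 2716 to 3623.

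With the beta-actin ratio as a covariate in limma's fit, the log2 difference of Ucp2 was -0.31 (unadjusted p = 0.027, adjusted p = 0.647). In that fit 1382 probe sets had an unadjusted p under 0.05, beside 1080 without the covariate. Macrophages also express Ucp2. Of 16 macrophage genes named on the array, 11 were tested and 0 passed. In the cafeteria group 11 of 11 were lower, beside 51.9% of all probe sets. Of the 11, 3 were lower at an unadjusted limma p under 0.05, beside 2.79% of all probe sets. Below the filter Mrc1 was higher (log2 difference 0.15) and the others were lower. The summed signal of the 16 was 4805 to 6958 on standard and 3034 to 5299 on cafeteria arrays. Lyz2 and C1qa had the highest mean signals among them, and the defining genes Csf1r and Cd68 were above the filter with log2 differences of -0.30 and -0.004. Their part in the Ucp2 values was not tested, and in whole islets fewer cells of a type and less RNA per cell cannot be told apart.

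Ucp3, the neighbour of Ucp2 on chromosome 1 and mainly a skeletal muscle gene, was below the filter on both of its probe sets. The main one, 1387681_at, gave 95.4, 102, 36.1 and 82.3 on standard replicates 1 to 4. It gave 49.5, 64.3, 122, 168 and 32.0 on cafeteria replicates 1 to 5, so that the highest and the lowest array were both of the cafeteria group. Its log2 difference was 0.02 (exact permutation p = 0.96), and 0.10 for the other probe set, whose signals were 10.2 to 109 on standard and 15.9 to 104 on cafeteria arrays. Of 8 skeletal muscle genes, 2 were above the filter, Myh1 and Acta1. The defining gene Ckm was below it, at 82.8 ± 27.6 (SD, n = 4) and 60.9 ± 41.2 (SD, n = 5).

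Of the lipid uptake and storage genes, none had a log2 difference beyond 0.1 in size. Cd36 encodes the membrane fatty acid translocase. Its probe set, 1367689_a_at, gave 374, 379, 510.3 and 213 on standard replicates 1 to 4 and 379, 389, 235, 401 and 298 on cafeteria replicates 1 to 5. All 5 cafeteria arrays lay within the standard range. The log2 difference was -0.07 ± 0.23 (SE; limma's interval -0.58 to 0.43, adjusted p = 0.97), and it was 0.10 without standard replicate 3, 0.05 without cafeteria replicate 3 and -0.30 without standard replicate 4.

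Angptl4 encodes a secreted inhibitor of lipoprotein lipase and is a PPAR target in many tissues. It gave 146, 82.1, 147 and 88.5 on standard replicates 1 to 4. On cafeteria replicates 1 to 5 it gave 39.9, 125, 123, 114 and 167. Cafeteria replicate 1 is the lowest array and replicate 5 the highest, and the residual SD of 0.56 is above that of 93.9% of probe sets. The log2 difference was -0.08 ± 0.33 (SE), with a limma interval of -0.79 to 0.63 and an adjusted p of 0.978, the widest interval of the 7 genes. Its sign turned without cafeteria replicate 1 (0.20) or standard replicates 1 or 3 (0.03 each).

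Plin2, which coats lipid droplets, gave 939.7, 1062, 1076 and 1159 on standard replicates 1 to 4 with its main probe set, 1390383_at. On cafeteria replicates 1 to 5 it gave 1307, 1080.1, 917, 1173 and 864. The cafeteria arrays spread to both sides of the standard ones, with 2 above all and 2 below all of them. On the log2 scale the difference was -0.0004 ± 0.14 (SE), with a limma interval of -0.29 to 0.29 and an adjusted p of 1.00, and it was -0.01 on the other probe set (interval -0.37 to 0.34). The signals of these probe sets were unrelated over the arrays (r = 0.05, rho = 0.10, exact permutation p = 0.903 and 0.81). Endothelial cells, macrophages and adipocytes also express Cd36, and adipocytes Plin2 and Angptl4. Of 9 adipocyte genes named, 3 were above the filter (Lpl, Fabp4 and Lipe). The summed signal of all 9 was 2398 to 2905 on standard and 2298 to 3156 on cafeteria arrays. Their mean log2 signal was 6.85 on standard and 7.08 on cafeteria arrays. Fabp4 (-0.19) alone among the 9 had a negative log2 difference, and Adipoq had the largest (0.75). The defining genes Adipoq and Plin1 were below it on average, Adipoq at 43.2 ± 27.8 (SD, n = 4) on standard and 76.3 ± 18.6 (SD, n = 5) on cafeteria arrays, and Plin1 at 59.1 ± 34.3 and 55.2 ± 13.6. Of 11 endothelial genes, 10 were tested and 8 were lower in the cafeteria group, with sums of 15559 to 17926 and 14543 to 17133. Plvap and Kdr had the highest mean signals, and the defining gene Pecam1 had a log2 difference of -0.32. The other defining gene, Cdh5, was not among the 11. The part of these cells in the values was not tested.

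**Figure D4:**
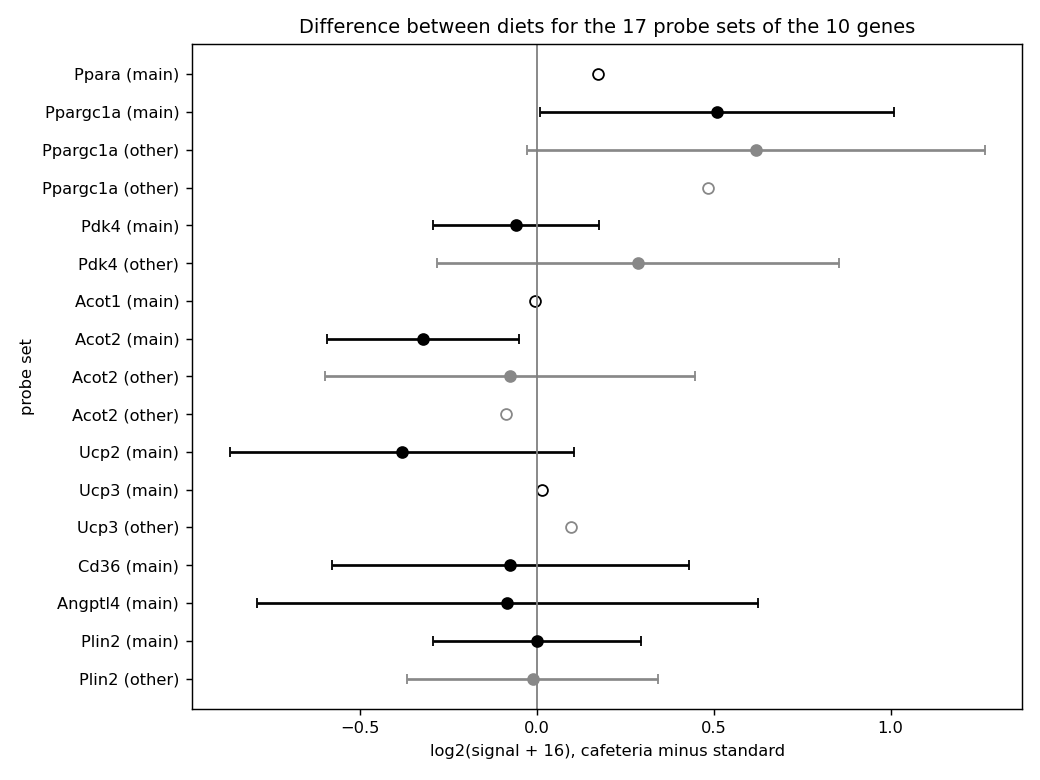
Difference of log2(signal + 16), cafeteria minus standard, for the 17 probe sets, in black for the main one of each gene and grey for the others; bars are limma's 95% intervals, and open points lie below the filter and have none. The intervals of the main probe sets of Ppargc1a (0.0099 to 1.01) and Acot2 (-0.59 to -0.049) leave out 0, and those of the other 5 tested genes include it.

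Among the 7 tested genes, no pair had a relation over the 9 arrays that passed adjustment. With 9 arrays this does not show that relations are absent. Of their 21 pairs, 11 had a positive and 10 a negative Pearson r, and 0 pairs passed 0.05 after adjustment of the exact permutation p over the pairs. The largest in size was between Plin2 and Angptl4 (r = -0.78, rho = -0.65, exact permutation p = 0.0091 and 0.0666, 0.191 after adjustment of the first), which was -0.45 without the 2 arrays farthest from the median of Plin2. Ucp2 and Plin2 had r = 0.65 and rho = 0.52 (exact permutation p = 0.0565 and 0.162). Against the beta-actin ratio, Plin2, Ucp2 and Angptl4 had r = -0.92, -0.84 and 0.62, and the part of the ratio in these pairs was not tested. Pdk4 and Angptl4, both PPAR targets, had r = 0.64 and rho = 0.78 (exact permutation p = 0.0708 and 0.0172). Ppargc1a and Ucp2 had r = -0.35. The residual SD of the 7 genes ran from 0.11 for Acot2 to 0.56 for Angptl4.

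The wider pathway was read from 8 lists of related genes. Of 132 genes, 117 were named on the array and 94 were tested; 54 were higher and 40 lower in the cafeteria group, and limma called 0. Unadjusted, 7 genes had a limma p under 0.05, of which 4 were higher and 3 lower, 7.45% of those tested beside 5.80% of all probe sets. Groups did not overlap for 2 of the 94 (2.13%, beside 1.76% of all). One was Fabp5, which encodes a fatty acid carrier protein of the cytosol. It gave 529 to 606 on standard and 254 to 502 on cafeteria arrays, a log2 difference of -0.51 ± 0.18 (SE; limma's adjusted p = 0.839). The other was Slc25a20, which encodes the carrier that brings acylcarnitines into mitochondria. It gave 909.8 to 973 on standard and 976 to 1236 on cafeteria arrays, a log2 difference of 0.17 ± 0.11 (SE; limma's adjusted p = 0.859).

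The genes on the list of receptors and coregulators were lower in 11 of 14 cases, with a median log2 difference of -0.06. Rxrb, which encodes a partner receptor of the PPARs, had -0.40 ± 0.18 (SE) and Ppard, which encodes another PPAR, -0.20. Nrf1, also on that list, encodes a transcription factor that is neither a PPAR or RXR receptor nor a coregulator, and had -0.24. Among other PPAR targets 10 of 18 were higher (median 0.04), with Acaa2, which encodes a thiolase of beta-oxidation, at -0.25 and Vnn1, which encodes pantetheinase, at 0.30. Of the uptake and activation genes 7 of 14 were higher (median -0.07), with the acyl-CoA synthetase genes Acsl3 at -0.32 and Acsl4 at 0.17. None of these was called, and the lowest adjusted p by limma among the named ones was 0.839.

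Lipid droplet, storage and lipolysis genes were split, 8 higher and 8 lower of 16 (median 0.0001). Plin3, which encodes another droplet coat protein, had -0.39 ± 0.18 (SE), Agpat2, which encodes an enzyme of triglyceride synthesis, -0.36, and Fitm2, needed for droplet formation, 0.35 ± 0.15 (SE). Mitochondrial carriers were higher in 8 of 11 cases (median 0.07), among them Slc25a5, an ADP/ATP carrier gene (0.22 ± 0.10, SE), and Slc25a12 (0.16), while the citrate carrier gene Slc25a1 had -0.35. Around pyruvate dehydrogenase, 10 of 11 were higher, with a median of 0.18 beside -0.009 over all probe sets. Mpc2, a subunit of the mitochondrial pyruvate carrier, gave 1964 to 2255 on standard and 2177 to 2792 on cafeteria arrays, a log2 difference of 0.27 ± 0.11 (SE). Dld and Pdhb, which encode subunits of the dehydrogenase complex, had 0.27 ± 0.12 and 0.25 ± 0.14 (SE). Acyl-CoA thioesterases other than Acot1 and Acot2 were higher in 5 of 6 cases (median 0.16), with Acot9, Acot7 and Them4 at 0.21, 0.21 and 0.23, and angiopoietin and angiopoietin-like genes in 3 of 4 (median 0.25), with Angptl2, Angptl6 and Angpt2 at 0.32, 0.30 and 0.21. In each of these lists limma called 0 genes.

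**Figure D5:**
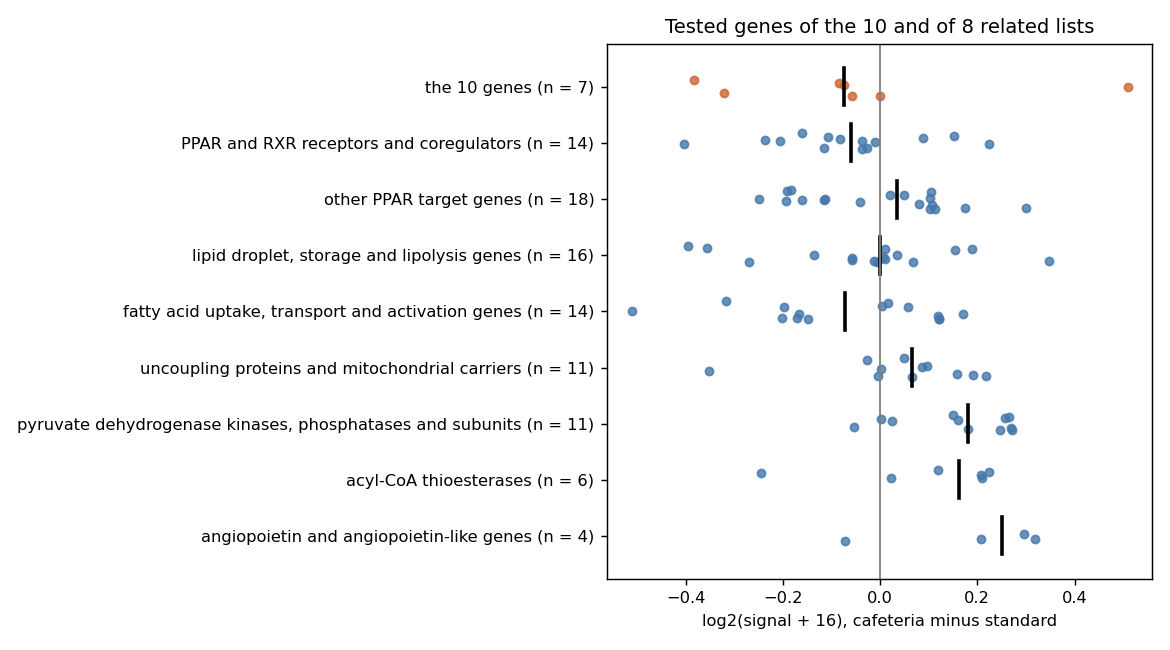
Difference of log2(signal + 16), cafeteria minus standard, of each tested gene (points) in the 10 genes of interest (7 tested) and in 8 related lists; the black bar is the median of a list, and vertical scatter within a row has no meaning. Medians lie between -0.07 for the 10 genes and 0.25 for the angiopoietin and angiopoietin-like genes, and the point of Ppargc1a at 0.51 is the farthest to the right.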

How the data were processed

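Total RNA of islets was hybridised to single-colour Affymetrix rat genome arrays. The authors deposited 1 linear intensity signal per probe set; MAS5 is the tool in the submitters' processing notes, with no version or settings given. The 2% trimmed mean of each array was 500, so no further scaling was applied. Detection calls were not used here. After 57 control probe sets were left out, 31042 remained: 20826 with 1 gene symbol in the platform annotation, 436 with several and 9780 with none. Of the 20826, 20758 matched a current gene by identifier, and 2 probe sets with several symbols, a member among them, were not used.

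Signals were tested as log2(signal + 16), which understates changes of dim genes, in limma 3.58.1 (R 4.3.3) with an intensity trend and diet as the only term. A call needed an adjusted p under 0.05. Exact tests enumerated all splits into 4 and 5 arrays, or all pairings of 9 arrays (Python 3.11.15, numpy 2.4.6). Promoter windows came from RefSeq (GRCr8), and arrays carry no read depth.

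The members and lists were chosen with earlier results of these data known. Named genes are the 10 members, up to 3 genes per related list with the smallest unadjusted p, the 2 brightest genes of each marker list and the defining markers. The labels call the samples independent. Alternatives were other pseudocounts (1 and 64), quantile or median scaling, filters, variance models, array weights, a beta-actin covariate, the replicate block, other probe sets and left-out arrays.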

Additional observations from a re-analysis of the deposited data

Results flagged for a closer look

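In 20 groups examined, the 2 diets for each of the 10 main probe sets, 4 had 1 array far from the others. The cut-off gives about 1 in 20 groups for independent values with a normal spread. The groups here are linear signals that share the same 9 arrays, so the count cannot be set against that rate. The Ppara signal was 30.3 on cafeteria replicate 1, the highest of its group, in a range where the array gives no usable level. The Angptl4 signal was 39.9 on the same array, the lowest of its group. The Ucp2 signal was 2374 on standard replicate 1, the lowest of its group, and that array had a beta-actin 3' to 5' ratio of 4.84. The Acot2 signal was 431 on cafeteria replicate 3, the highest of its group, and that array had the highest ratio, 5.63.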

How the results depend on the processing

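The number of the 10 genes called stayed at 0 in all 20 alternatives. Over all probe sets the number called was 0 to 2 with each array left out (2 without standard replicate 2) and 0 in the others. Ppargc1a stayed higher and Ucp2 and Acot2 lower in every alternative, at 0.38 to 0.69, -0.58 to -0.19 and -0.38 to -0.08. Where tested, their unadjusted limma p ran from 0.0034 to 0.22, 0.0153 to 0.291 and 0.0151 to 0.761. That of Ppargc1a, 0.046 in the main fit, was 0.054 with the actin covariate and 0.052 without the filter. Members at an unadjusted p under 0.05 were 2, and 0 to 3 in the alternatives; over all probe sets the count was 1080, and 582 to 1821. The Plin2 difference, near 0, changed sign with a pseudocount of 64 (0.00015), quantile (0.013) or median scaling (0.044), array weights (0.024), the actin covariate (0.036) and left-out arrays (-0.076 to 0.071). With each array left out, Pdk4 ran from -0.10 to 0.021, Angptl4 from -0.23 to 0.20 and Cd36 from -0.30 to 0.10; without 3 doubted arrays (standard replicates 1 and 3 and cafeteria replicate 3, a set taken from earlier work on these arrays) they were 0.079, 0.21 and 0.34. Pdk4 was 0.29 on probe set 1369150_at. No pair of members passed after group means were removed either (0 of 21). The causes were not tested.

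Replicate numbers are shared between the diets, but the labels do not say that they mark animals, litters or batches. Same-numbered arrays were therefore not treated as pairs. Their deviations from the group means had correlations of -0.38 to 0.03, which with so few arrays cannot show that no pairing exists. With the replicate block, in which cafeteria replicate 5 has no partner and adds nothing to the difference, 0 members were at an unadjusted p under 0.05 in place of 2, 582 probe sets in place of 1080, none was called, and the Plin2 difference was 0.071.

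Limits are the number of arrays and dim signals: Ppara, Acot1 and Ucp3 had no main probe set above the filter, their differences changed sign in some alternatives by less than the spread between arrays, and a filter at the 60th percentile leaves Ppargc1a and Angptl4 untested too.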

Other observations

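Among the 8 skeletal muscle genes, the probe set named Myh1, a fast myosin heavy chain gene, had a signal of 8470.1 ± 1081 (SD, n = 4) on standard and 9451 ± 618 (SD, n = 5) on cafeteria arrays. Myh2 and Myh4, which encode other fast myosins, were below the filter, at 51.5 and 48.6 for Myh2 and 27.2 and 23.5 for Myh4, and Myod1 was at 7.79 and 2.99. Whether that probe set measures Myh1 in islets was not tested.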
